A study of Homo sapiens with 8 samples.

Results

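Interferon-stimulated effector genes encode the proteins that a cell makes after interferon signalling and that block, degrade or sense viral material, and 41 of them were followed here in NS-SV-AC cells given TNF-α. The genes were taken from a list of symbols, and every probe set that the array platform's annotation gives to 1 of these symbols was used. Of the 41 listed genes, 40 had such a probe set, with 105 probe sets among them, out of 18239 genes and 49386 probe sets in all. Where a gene had several probe sets, as 25 of the 40 did, the one with the highest mean over all arrays stood for the gene. That mean includes the arrays of treated cells, so the rule can favour a probe set that is higher with TNF-α.

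NS-SV-AC cells came from human salivary acini, the secreting ends of the gland, and were immortalised, so all arrays come from 1 line. One arm received TNF-α at 20 ng/ml and the other, as control, bovine serum albumin (BSA). Cells were harvested for RNA at 2, 6, 12 and 24 h. Each combination of treatment and time was measured on 1 Affymetrix GeneAtlas array, which gave 8 arrays, 4 per arm, and no replicate at any time. Levels are log2 values after RMA, differences are TNF-α minus BSA at the same time, and a difference of 1 is a change of 2-fold.

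Type I and type III interferons bind receptors at the cell surface, and Janus kinases then activate a transcription factor complex that holds IRF9 and binds the interferon-stimulated response element in target promoters. Interferon gamma acts through a different element, the gamma-activated site. TNF-α signals mainly through NF-κB, and one of the genes it induces directly is IRF1, a factor that can also bind response elements. Interferon-stimulated genes are known to be raised in the salivary glands of patients with Sjögren's disease.

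The response element was looked for in RefSeq promoter windows of the human assembly GRCh38.p14, which run from 250 bases before a transcript start to 50 bases after it. Windows were given for 33 of the 40 genes. The letters GAAA, then NN, then GAAA, read on both strands with overlapping matches counted, were present in a window of 24 of these 33 genes (72.7%), against 4.38% of the 27305 genes with windows. The letters TTCNNNGAA of the gamma-activated site were present for 10 of the 33 (30.3%), against 9.38% of all genes, and the NF-κB consensus motif for 3 (9.09%), against 7.09%. Stretches of 6 promoters from base -150 to base 10, counted from the transcript start, show how the element sits in genes that differ in response. They were chosen after their values were seen, as an IFIT gene, a ubiquitin-like modifier, a PARP, a gene whose start lies in the element, and a pair of IFITM neighbours of unlike response. Capitals mark the response element, which reads as its reverse complement in IFIT1, and each sequence is given on the strand of its gene.

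IFIT1, chr10:89392473-89392632, plus strand: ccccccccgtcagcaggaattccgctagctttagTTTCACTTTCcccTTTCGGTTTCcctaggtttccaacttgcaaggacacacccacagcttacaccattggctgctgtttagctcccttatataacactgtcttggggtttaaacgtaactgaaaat
ISG15, chr1:1013347-1013506, plus strand: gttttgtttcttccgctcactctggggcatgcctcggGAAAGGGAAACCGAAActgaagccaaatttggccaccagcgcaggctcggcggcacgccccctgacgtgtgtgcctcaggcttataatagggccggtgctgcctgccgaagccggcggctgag
PARP14, chr3:122680689-122680848, plus strand: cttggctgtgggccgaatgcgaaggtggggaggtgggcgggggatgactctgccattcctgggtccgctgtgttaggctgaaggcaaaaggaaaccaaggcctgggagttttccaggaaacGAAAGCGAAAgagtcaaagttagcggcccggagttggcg
DTX3L, chr3:122564188-122564347, plus strand: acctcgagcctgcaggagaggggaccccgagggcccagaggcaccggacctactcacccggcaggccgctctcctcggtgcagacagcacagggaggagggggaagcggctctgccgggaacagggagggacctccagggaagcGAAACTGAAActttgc
IFITM1, chr11:313890-314049, plus strand: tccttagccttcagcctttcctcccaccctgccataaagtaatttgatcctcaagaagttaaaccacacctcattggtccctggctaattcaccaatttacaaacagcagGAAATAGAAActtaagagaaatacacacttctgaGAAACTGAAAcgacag
IFITM3, chr11:320851-321010, minus strand: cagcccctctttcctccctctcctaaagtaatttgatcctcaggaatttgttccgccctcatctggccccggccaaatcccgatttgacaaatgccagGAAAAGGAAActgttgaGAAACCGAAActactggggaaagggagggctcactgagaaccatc

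In ISG15 a pair of matches overlaps by 4 bases, and in IFIT1, IFITM1 and IFITM3 a pair of matches stands apart. In DTX3L and IFITM1 an element begins at base -6 and ends at base 4, across the transcript start. The same element of DTX3L, chr3:122564332-122564341, also lies in a window of its neighbour PARP9, which is read from the opposite strand. XAF1, the gene with the largest mean difference, had no match of the response element in its 2 windows and a match of the NF-κB motif from base -103 to base -94. The other genes with an NF-κB match were BST2 and IFITM3, whose mean differences over 4 times were among the smallest, 0.10 and 0.03. The 24 genes with the element had median differences of -0.04, 1.10, 1.62 and 2.51 at 2, 6, 12 and 24 h, and the 9 without it had -0.05, 0.79, 1.60 and 1.80. A match of letters is a description of these windows and does not show that a factor was bound.

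The TNF-α array at 24 h stood apart from the others, and every 24 h value below carries that limit. On it the 3′ probe set of GAPDH exceeded the 5′ one by 6.28, where the remaining 7 arrays had 0.20 to 0.37, and for ACTB the excess was 6.88 where they had 2.59 to 3.47. Its mean correlation across genes with the other arrays was 0.925, against 0.968 to 0.978. The epithelial keratin KRT8 read 2.72 on the TNF-α array and 6.37 on the BSA array at 24 h, where it had been 8.59 to 8.91 on the 6 arrays before. The part of this in the 24 h differences was not tested. Of 8 epithelial markers KRT8 and KRT18 lay above the upper quartile of all genes in BSA cells, KRT5, KRT14 and KRT19 below the median, and EPCAM, CDH1 and KRT7 below the lower quartile. Of 9 measured salivary acinar markers 6, among them MUC7, STATH and PRB1, lay below the lower quartile of all genes in BSA cells. PIP and AQP5 lay between it and the median, and SLC12A2, with a mean of 7.39, above the upper quartile. AQP5, the water channel of acinar cells, was between 4.03 and 4.13 on TNF-α arrays and 3.88 and 4.06 on BSA arrays. The 8 measured leukocyte markers had list means of 4.03 to 4.14 on TNF-α arrays and 3.98 to 4.12 on BSA arrays, and 5 of the 8, PTPRC and CD14 among them, lay below the lower quartile. CD3E lay between it and the median, and CD68 and NCAM1, with BSA means of 5.24 and 7.28, between the median and the upper quartile. At 12 h NCAM1 differed by -0.99 and CD68 by 0.49. The 7 fibroblast and endothelial markers had list means of 5.44 to 5.85 on TNF-α arrays and 5.49 to 5.61 on BSA arrays. Of these, COL3A1 lay above the upper quartile in BSA cells, DCN and PDGFRB between the median and the upper quartile, COL1A1, PECAM1 and VWF below the median and CDH5 below the lower quartile. PDGFRB, a growth factor receptor of mesenchymal cells, differed by -0.75 and -0.77 at 6 and 12 h and passed limma's fit to these times as lower with TNF-α (adjusted p = 0.00534), and its part in the results below was not tested. Bulk RNA does not tell fewer cells expressing a gene from less RNA per cell.

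The 40 effector genes were close to their BSA level at 2 h, with 20 of them above it (42.9% of all genes), and most stood well above it from 6 h on. At 2, 6, 12 and 24 h the median differences were -0.02, 0.89, 1.5 and 2.07, where those of all genes were -0.02, -0.01, -0.00 and 0.20. At 2 h 0 of the 40 were at least 2-fold higher with TNF-α (0.493% of all genes). By the same mark 18 were higher at 6 h (1.38%), 27 at 12 h (1.29%) and 30 in the 24 h pair (6.1%). None was 2-fold lower at 2, 6 or 12 h (0.0439%, 0.384% and 0.839% of all genes), and 1, BST2, was at 24 h (6.67%). With 1 array per arm and time these counts have no test. When the probe set brightest in BSA cells stood for each gene, 0, 16, 25 and 28 of the 40 were 2-fold higher. The median differences were then -0.06, 0.78, 1.34 and 1.80, where those of all genes were -0.02, -0.01, -0.01 and 0.20.

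**Figure D1:**
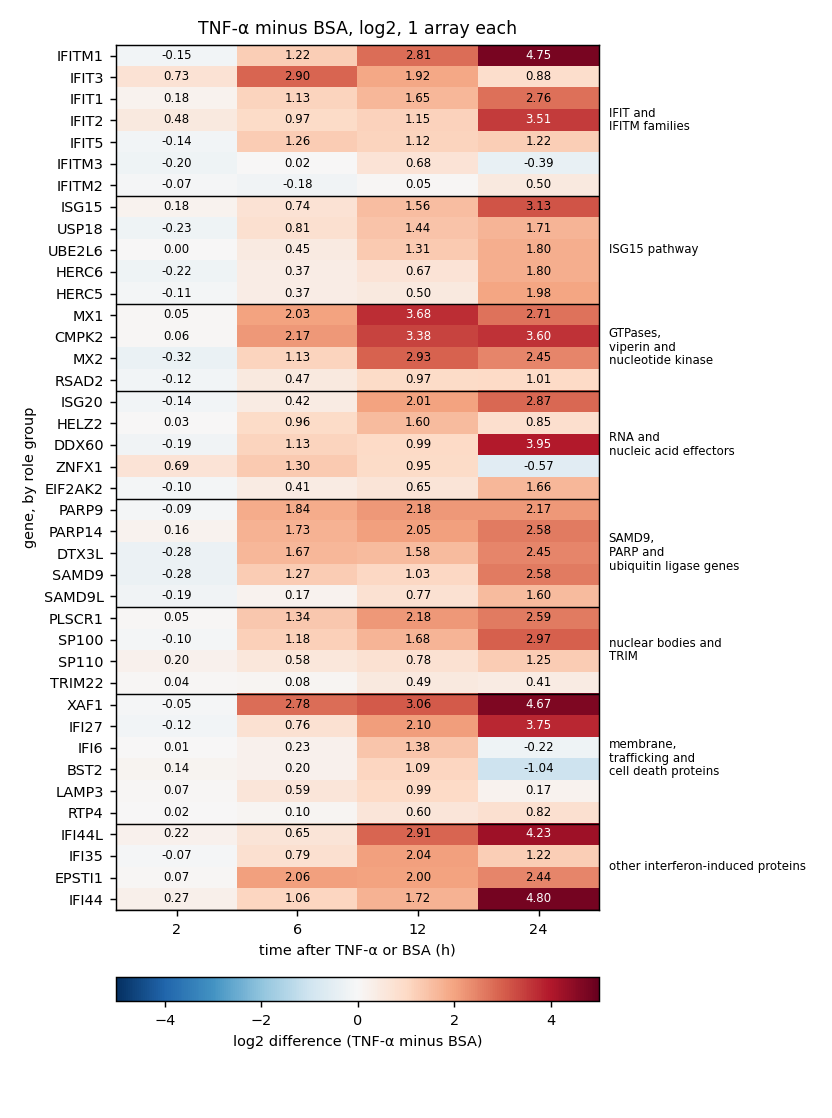
Log2 difference (TNF-α minus BSA, 1 array each) of each of the 40 genes at 2, 6, 12 and 24 h, in rows grouped by the role of the protein; red is higher with TNF-α and blue is lower. The 2 h column lies between -0.32 and 0.73, while at 12 h every gene is above 0.

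As a comparison over the arms as a whole, every TNF-α array from 6 h on read above all 4 BSA arrays for 29 of the 40 genes, against 7.22% of all genes, and below them for 0, against 2.57%. The 11 genes whose arms overlapped were IFIT3, DDX60, IFI35, HERC5, EIF2AK2, ZNFX1, LAMP3, IFI6, BST2, IFITM2 and IFITM3. Without the 24 h arrays, an alternative added after seeing the data, the TNF-α arrays of 6 and 12 h read above the BSA arrays of 2, 6 and 12 h for 36 of the 40 (12.8% of all genes).

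Neither planned main test that includes 2 h called any of the 40. In limma's fit of TNF-α against BSA with time as a factor (Benjamini-Hochberg adjustment over 18239 genes, threshold 0.05), 0 effector genes passed over 4 times (0.0164% of all genes higher), although 27 were higher and 0 lower at an unadjusted p under 0.05, where 4.12% and 3.39% of all genes were. Over 2, 6 and 12 h again 0 passed (0.318% of all genes higher and 0.0493% lower), with 23 higher and 0 lower at an unadjusted p under 0.05 (4.89% and 9.12% of all genes), and the smallest adjusted p was 0.0641, of ZNFX1. With a prior variance that follows the level, 2 of the 40, ZNFX1 and IFIT2, passed over 2, 6 and 12 h (smallest adjusted p 0.0249). The fit that leaves out the 2 h pair, over 6 and 12 h only, called 31 of the 40 higher and 0 lower, where 2.79% of all genes were higher and 3.21% lower. That fit has 1 residual degree of freedom and is singled out because it made calls, and "rose" and "fell" below refer to it alone. Each ± below is limma's SE after moderation, which draws on the variance of all genes. It is not the spread of a gene's own pairs. IFITM1, for example, differed by 1.22 at 6 h and 2.81 at 12 h and has a moderated SE of 0.30. Leaving out the 6 h pair in its place called 0 of the 40 and 0 of all genes, and leaving out the 12 h pair called 0 of the 40, while 57 of all genes passed.

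The 9 genes that did not pass over 6 and 12 h had adjusted p of 0.0507 (ISG20), 0.0643 (HERC5), 0.0897 (IFI6), 0.0993 (BST2), 0.132 (SAMD9L), 0.232 (RTP4), 0.299 (IFITM3), 0.305 (TRIM22) and 0.853 (IFITM2) in limma. All of them but IFITM2 had a mean difference above 0 over these times.

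When onset is taken as the first time with a difference of at least 1, it fell at 6 h for 18 genes, at 12 h for 11 and at 24 h for 6, against 0.965%, 0.378% and 5.12% of all genes. The other 5, LAMP3, RTP4, TRIM22, IFITM2 and IFITM3, reached it at no time. Measured against the highest of the 4 BSA arrays, the 2-fold mark was passed by 0 genes at 2 h (0.411% of all genes), 9 at 6 h (0.916%), 24 at 12 h (0.894%) and 25 at 24 h (3.89%). The difference was largest at 6 h for 3 genes, at 12 h for 10 and at 24 h for 27. The shares of all genes were not counted for these times of the largest difference. Among all genes 6.1% were 2-fold higher and 6.67% 2-fold lower at 24 h, against 1.29% and 0.839% at 12 h. Among the genes at least 2-fold apart at 12 h, the median ratio of the 6 h difference to the 12 h difference was 0.62 on the log2 scale. Across the 40 genes the 6 h and 12 h differences correlated with r of 0.68 and the 12 h and 24 h differences with r of 0.59, with the genes read on the same arrays.

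The dependence of the difference on time was also fitted as a slope per doubling of the hours. By limma 0 of the 40 genes and 0 of all genes passed, and 24 of the 40 had a positive slope at an unadjusted p under 0.05 (2.71% of all genes). The smallest adjusted p among them, 0.583, was that of SP100, with 0.82 ± 0.10 (SE) per doubling. XAF1 had 1.25 ± 0.15 (adjusted p = 0.639) and IFITM1 1.36 ± 0.18 (0.722).

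The IFIT proteins bind viral RNA and the IFITM proteins sit in membranes and block the entry of enveloped viruses. Of these 7 genes 5 rose over 6 and 12 h. IFIT3, which forms complexes with IFIT1, read 6.38, 8.17, 8.41 and 5.93 in TNF-α cells at 2, 6, 12 and 24 h, against 5.64, 5.27, 6.49 and 5.05 in BSA cells. It had the largest 6 h difference of the family, 2.90, where its 12 h difference was 1.92. It rose by 2.41 ± 0.20 over 6 and 12 h (moderated SE, 2 pairs, limma adjusted p = 0.000266), but its TNF-α level at 24 h lay below its BSA level at 12 h. IFIT1, which binds RNA that lacks cap methylation, rose by 1.39 ± 0.14 (0.000829), IFIT2 by 1.06 ± 0.11 (0.0011) and IFIT5 by 1.19 ± 0.11 (0.00055). These 4 genes lie in 1 cluster on chromosome 10.

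IFITM1, IFITM2 and IFITM3 lie next to each other on chromosome 11 and are close in sequence, and their values were far apart. IFITM1, found mainly at the cell surface, read 5.24, 6.33, 7.89 and 9.70 in TNF-α cells and 5.40, 5.11, 5.08 and 4.94 in BSA cells. Its differences were -0.15, 1.22, 2.81 and 4.75, with no overlap of the arms from 6 h, and it rose by 2.01 ± 0.30 over 6 and 12 h (limma adjusted p = 0.00545). IFITM3, which acts in endosomes, read 8.91, 9.49, 9.73 and 7.78 in TNF-α cells and 9.11, 9.47, 9.04 and 8.17 in BSA cells. IFITM2, its close relative, read 10.49, 10.67, 10.67 and 10.20 in TNF-α cells and 10.56, 10.85, 10.63 and 9.70 in BSA cells. Both overlapped between arms, were high in BSA cells and stayed within 0.20 of BSA at 2 and 6 h. Their probe sets carry the suffix that marks possible cross-reaction, so the signals of the 2 genes may be mixed. As shown above, the IFITM1 and IFITM3 promoters each hold a pair of response elements.

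ISG15 is a ubiquitin-like protein that is joined to other proteins, and UBE2L6, HERC5, HERC6 and USP18 join it or take it off, HERC6 doing so in the mouse. Of these 5 genes 4 rose over 6 and 12 h, none was 2-fold apart at 6 h, and all 5 were at 24 h. ISG15 read 8.49, 9.65, 10.39 and 10.48 in TNF-α cells and 8.32, 8.91, 8.83 and 7.34 in BSA cells, and rose by 1.15 ± 0.18 (limma adjusted p = 0.00714). UBE2L6, its conjugating enzyme, rose by 0.88 ± 0.19 (0.028), and USP18, which removes ISG15 and damps the interferon receptor, by 1.13 ± 0.16 (0.004). HERC5, the human ISG15 ligase, was 0.37, 0.50 and 1.98 higher at 6, 12 and 24 h and did not pass. The onsets of the group, as defined above, were at 12 h for 3 genes and at 24 h for 2.

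MX1 and MX2 are dynamin-like GTPases that trap viral nucleocapsids, RSAD2 is viperin, and CMPK2 is a nucleotide kinase encoded beside it. All 4 rose over 6 and 12 h with no overlap of the arms. MX1 read 5.32, 7.87, 9.34 and 7.57 in TNF-α cells and 5.27, 5.84, 5.66 and 4.86 in BSA cells, which gave at 12 h the largest difference of any of the 40 genes at that time, 3.68. MX2 read 3.38, 4.55, 6.32 and 5.90 in TNF-α cells and 3.70, 3.42, 3.39 and 3.45 in BSA cells. Its BSA level lay below the lower quartile of genes, and its other probe set differed by 0.44 at 12 h. CMPK2 read 3.70, 6.15, 7.25 and 7.56 in TNF-α cells and 3.64, 3.97, 3.87 and 3.96 in BSA cells, while its other 2 probe sets differed by 0.18 and 0.28 at 12 h. CMPK2 was thus read on a probe set that was dimmer in BSA cells than the one with 0.28. RSAD2, its neighbour on chromosome 2, was 0.47, 0.97 and 1.01 higher at 6, 12 and 24 h, and its other probe set was 1.05 and 2.03 higher at 6 and 12 h.

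**Figure D2:**
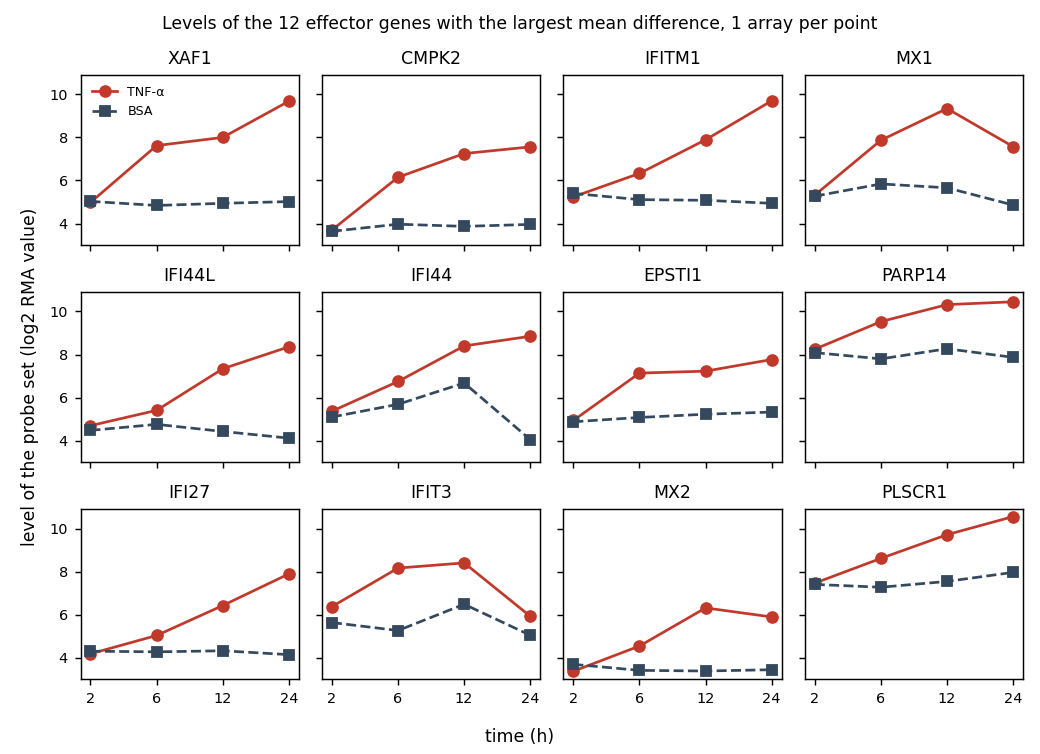
Levels (log2 RMA value) in TNF-α cells (red circles) and BSA cells (dark squares) at 2, 6, 12 and 24 h, 1 array per point, for the 12 genes with the largest mean difference over 4 times. Both arms meet at 2 h in most panels; at 24 h MX1, IFIT3 and MX2 are lower than at 12 h in TNF-α cells and the others higher, and in BSA cells IFI44, IFIT3 and MX1 are lower by at least 0.80.

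Effectors that act on RNA and nucleic acids were the exonuclease ISG20, the helicase-like HELZ2, DDX60 and ZNFX1, and EIF2AK2, the kinase PKR that stops translation when it meets double-stranded RNA. Of these 5 genes 4 rose over 6 and 12 h, and only 2 had arms that did not overlap. DDX60 was 1.13, 0.99 and 3.95 higher at 6, 12 and 24 h. HELZ2 was 0.96 and 1.60 higher at 6 and 12 h on the probe set used. Its other probe sets were 0.24 and 0.34 higher at 6 h and 0.13 and 0.63 higher at 12 h. ZNFX1, a sensor of double-stranded RNA, was 0.69, 1.30 and 0.95 higher at 2, 6 and 12 h. At 24 h it was lower by 0.57, where most of the list was higher. It rose by 1.12 ± 0.13 over 6 and 12 h (limma adjusted p = 0.00129). EIF2AK2 rose by 0.53 ± 0.12 (0.0356) from a BSA level above the upper quartile of genes.

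PARP9 and DTX3L form a complex that modifies ubiquitin and histones, PARP14 is a mono-ADP-ribosyltransferase, and SAMD9 and SAMD9L restrict poxviruses. The arms of these 5 genes did not overlap from 6 h, and 4 of the 5 rose. PARP14 read 8.25, 9.53, 10.32 and 10.45 in TNF-α cells and 8.09, 7.80, 8.27 and 7.87 in BSA cells, a rise of 1.89 ± 0.12 (limma adjusted p = 5.95e-05). PARP9 rose by 2.01 ± 0.13 (4.69e-05) and DTX3L by 1.63 ± 0.11 (8.27e-05). On the probe sets used all 3, near neighbours on chromosome 3, were at least 1.67 higher at 6 h. Other probe sets of PARP9 differed by 0.50 and 0.57 at 6 h and by 0.80 and 1.23 at 12 h. The one with 0.50 and 0.80 was brighter in BSA cells than the one used, so the 6 h onset of PARP9 rests on the choice of probe set. Those of DTX3L differed by 1.73 and 0.89 at 6 h and by 2.0 and 0.53 at 12 h. The 6 probe sets of PARP14 were 1.02 to 2.37 higher at 12 h but spread from -0.77 to 2.58 at 24 h. SAMD9 rose by 1.15 ± 0.12 (0.000822), and its neighbour SAMD9L, 0.17 and 0.77 higher at 6 and 12 h, did not pass. The other 3 probe sets of SAMD9L were 1.12 to 1.34 higher at 6 h and 0.95 to 1.83 at 12 h, so its missed call and its onset at 24 h rest on the choice of probe set.

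PLSCR1, a phospholipid scramblase that also enters the nucleus, and SP100 and SP110, components of nuclear bodies, rose over 6 and 12 h. PLSCR1 read 7.47, 8.62, 9.72 and 10.56 in TNF-α cells and 7.41, 7.28, 7.55 and 7.97 in BSA cells (rise of 1.76 ± 0.18, limma adjusted p = 0.000839). SP100 rose by 1.43 ± 0.14 (0.00067) and SP110 by 0.68 ± 0.12 (0.011). The 9 probe sets of SP100 differed by -0.03 to 1.58 at 6 h and by 0.13 to 2.11 at 12 h. The 5 of SP110 differed by 0.07 to 0.70 and by 0.13 to 0.97. TRIM22, a ubiquitin ligase that limits virus transcription, read 5.01, 5.06, 5.26 and 5.35 in TNF-α cells and 4.97, 4.98, 4.77 and 4.95 in BSA cells. That probe set hardly moved, while a dimmer one of its 6, chosen here after its values were seen, was 0.95, 2.49 and 3.64 higher at 6, 12 and 24 h. The count of TRIM22 among the genes without an onset thus rests on the choice of probe set.

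XAF1 opposes inhibitors of apoptosis, IFI27 and IFI6 are small membrane proteins of organelles, BST2 is tetherin, which holds budding virus at the cell surface, LAMP3 is a lysosomal protein and RTP4 a receptor chaperone. Of these 6 genes XAF1, IFI27 and LAMP3 rose over 6 and 12 h. XAF1 read 4.98, 7.62, 8.0 and 9.68 in TNF-α cells and 5.03, 4.84, 4.94 and 5.02 in BSA cells, and rose by 2.92 ± 0.12 (limma adjusted p = 4.26e-06). Its BSA level was flat, and all 7 of its probe sets were higher at 12 h, by 1.47 to 4.98, where the brightest one differed by 3.06. IFI27 read 4.19, 5.04, 6.43 and 7.90 in TNF-α cells and 4.31, 4.28, 4.33 and 4.15 in BSA cells, with a steady gain after 2 h.

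BST2 and IFI6 went another way at the last time. BST2 read 8.32, 8.58, 9.03 and 4.25 in TNF-α cells and 8.19, 8.38, 7.95 and 5.30 in BSA cells. Both arms were low at 24 h, on its 3 bright probe sets alike, and the difference was 1.09 at 12 h and -1.04 at 24 h. IFI6 read 7.29, 7.45, 8.56 and 5.87 in TNF-α cells and 7.28, 7.23, 7.18 and 6.09 in BSA cells. It was 1.38 higher at 12 h and lower by 0.22 at 24 h, again with both arms low.

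Of the other interferon-induced proteins, EPSTI1, IFI44L, IFI44 and IFI35, all 4 rose over 6 and 12 h. EPSTI1 read 4.94, 7.14, 7.23 and 7.77 in TNF-α cells and 4.88, 5.08, 5.23 and 5.33 in BSA cells, and had nearly its full difference at 6 h (rise of 2.03 ± 0.11, limma adjusted p = 1.93e-05). IFI44L read 4.70, 5.41, 7.34 and 8.36 in TNF-α cells and 4.48, 4.76, 4.43 and 4.12 in BSA cells. IFI44, next to it on chromosome 1 and related in sequence, read 5.37, 6.75, 8.40 and 8.85 in TNF-α cells and 5.10, 5.69, 6.68 and 4.05 in BSA cells. The neighbours differed in the BSA arm: IFI44 was 1.59 higher at 12 h than at 2 h in BSA cells and IFI44L was not.

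In all, 22 of the 40 genes fall into 9 groups of near neighbours on a chromosome, with at most 2 other genes between members.

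Genes of low and of high level in BSA cells were both among those that differed. The quartiles of the mean BSA level over all genes were 3.70, 5.13 and 7.29, and 4 effector genes lay below the lowest, 11 between it and the median, 16 between the median and the upper one and 9 above. The 15 genes below the median had median differences of 0.65 at 6 h and 1.60 at 12 h, and the 25 at or above it 1.13 and 1.44. Across the 40 genes the mean BSA level correlated with the 12 h difference with r of -0.35 and with the 6 h difference with r of -0.23. The BSA mean enters both measures, and levels of different probe sets are not amounts of transcript.

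**Figure D3:**
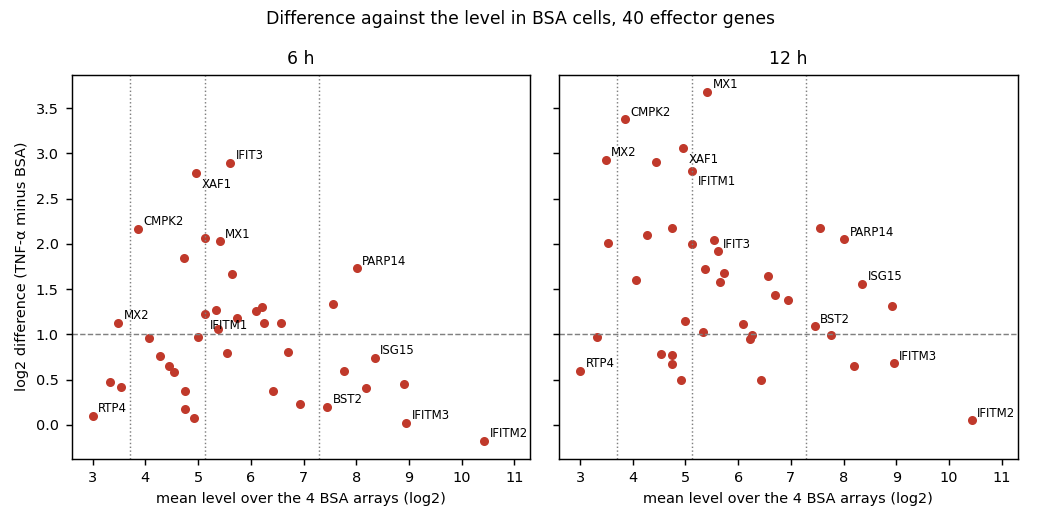
Difference (TNF-α minus BSA, log2) at 6 h (left) and 12 h (right) against the mean level over the 4 BSA arrays (log2) for the 40 genes; dotted lines are the quartiles of all genes and the dashed line is 2-fold. MX2 and RTP4 lie below the lower quartile and PARP14, ISG15, BST2, IFITM3 and IFITM2 above the upper one.

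The BSA arm itself moved at the last times. Between 12 and 24 h the level was lower in BSA cells for 29 of the 40 genes, with a median difference between these times of -0.32 where all genes had 0.0. At least 2-fold lower at 24 h than at 12 h in BSA cells were 11 of the 40, against 2.04% of all genes, among them BST2 (-2.65), IFI44 (-2.63), IFIT1 (-2.56), IFIT2 (-2.48), ISG15 (-1.49) and IFIT3 (-1.45). LAMP3 was 2.09 higher. Against 2 h, 6 were at least 2-fold lower at 24 h (1.83%), and IFI44 and IFIT2 were 1.59 and 1.21 higher at 12 h (0.175% of all genes were 2-fold higher). The slope of the BSA arm on log2 hours passed for 0 of the 40 and 0 of all genes by limma, with 1 of the 40, IFIT5, higher with time at an unadjusted p under 0.05 and 0 lower (1.35% and 2.23% of all genes).

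The 24 h differences thus hold shifts of both arms. In TNF-α cells 25 of the 40 genes were higher at 24 h than at 12 h, as were 66% of all genes, and the median difference between these times was 0.25 where that of all genes was 0.15. The difference was larger at 24 h than at 12 h for 28 genes, and 5 of these had a lower TNF-α level at 24 h. The share of all genes with a larger 24 h difference was not counted, and their median difference was -0.00 at 12 h and 0.20 at 24 h. IFIT2 is an example: its TNF-α level was 7.30 at 12 h and 7.19 at 24 h, its BSA level 6.16 and 3.68, and its difference 1.15 and 3.51. XAF1 and IFITM1 are examples of the other kind, with TNF-α levels 1.69 and 1.81 higher at 24 h than at 12 h and BSA levels that differed by 0.07 and -0.13.

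**Figure D4:**
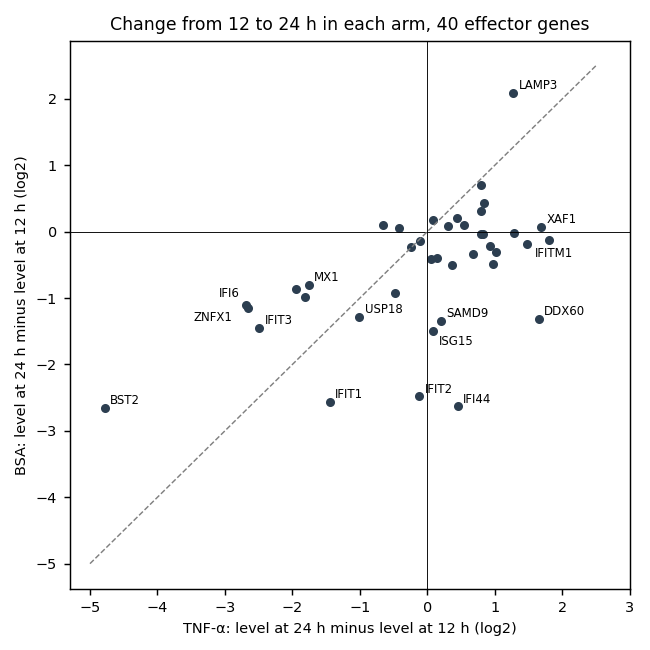
Level at 24 h minus level at 12 h (log2) in TNF-α cells (horizontal axis) and in BSA cells (vertical axis) for the 40 genes; the dashed line marks equal change. BST2 is low in both arms at 24 h, IFI44 and IFIT2 lie near 0 on the TNF-α axis and below -2 on the BSA axis, and XAF1 and IFITM1 lie near 0 on the BSA axis.

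The probe sets of a gene parted most at 24 h. Of all 105 probe sets 100 were higher with TNF-α at 6 h, 103 at 12 h and 91 at 24 h. By genes, 39, 40 and 36 of the 40 were higher at these times, against 8565, 8963 and 12955 of all 18239 genes. The share over all probe sets was not counted. Every probe set was higher at 12 h in 23 of the 25 genes with several, the exceptions being BST2 and IFITM2, and at 24 h in 18. Differences of 1 gene's probe sets lay more than 2 apart on the log2 scale for 4 genes at 12 h (XAF1, CMPK2, MX2 and TRIM22) and for 13 at 24 h.

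Genes that stand upstream of the effectors were read on the same arrays. Of 9 listed interferon ligands 6 were measured, and all 6, IFNB1, IFNL1 and IFNG among them, lay below the lower quartile of genes in BSA cells. Their differences were between -0.15 and 0.29 at every time, and none passed any of the fits. IFNB1 read 3.22, 3.22, 3.24 and 3.19 in TNF-α cells and 3.07, 3.13, 3.02 and 3.10 in BSA cells. At these levels an array does not separate a low transcript from background.

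Of 9 interferon receptor and kinase genes 1 passed over 2, 6 and 12 h and 5 were higher over 6 and 12 h. IFNGR2, a chain of the interferon gamma receptor, was the one: it was higher by 1.52 ± 0.12 (limma adjusted p = 0.0171) over 2, 6 and 12 h. Of 6 measured STAT and IRF factors 1 passed over 2, 6 and 12 h, IRF1, by 2.44 ± 0.11 (adjusted p = 0.00305), and 3 over 6 and 12 h. IRF1 read 9.85, 9.51, 8.32 and 6.72 in TNF-α cells and 7.24, 6.96, 6.16 and 6.91 in BSA cells, so that it was 2.61 higher at 2 h, where the effector genes had a median difference of -0.02. IRF9 read 4.94, 8.12, 8.43 and 8.62 in TNF-α cells and 5.08, 5.19, 5.26 and 4.77 in BSA cells, with differences of -0.13, 2.92, 3.17 and 3.85.

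Neighbouring lists differed in timing. The 5 measured early NF-κB targets had median differences of 4.05, 4.56, 4.04 and 3.19 at 2, 6, 12 and 24 h, with NFKBIA, the inhibitor of NF-κB, 3.43 higher and TNFAIP3 7.87 higher at 2 h. The 5 guanylate binding proteins, GTPases that attack pathogen vacuoles, had 0.24, 3.01, 3.18 and 1.48, and GBP1 was already 2.24 higher at 2 h and 5.95 at 6 h. The 4 OAS enzymes, which activate RNase L, had 0.20, 0.54, 1.36 and 1.07. Of 8 sensors and adaptors, 3 rose over 6 and 12 h and 1, MAVS, fell, and RIGI and IFIH1, which detect viral RNA, were 3.23 and 2.53 higher at 6 h. None of the 4 negative regulators (SOCS1, SOCS3, PIAS1 and PTPN6) passed a fit. These lists are compared by their values only, since the difference between lists was not tested.

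**Figure D5:**
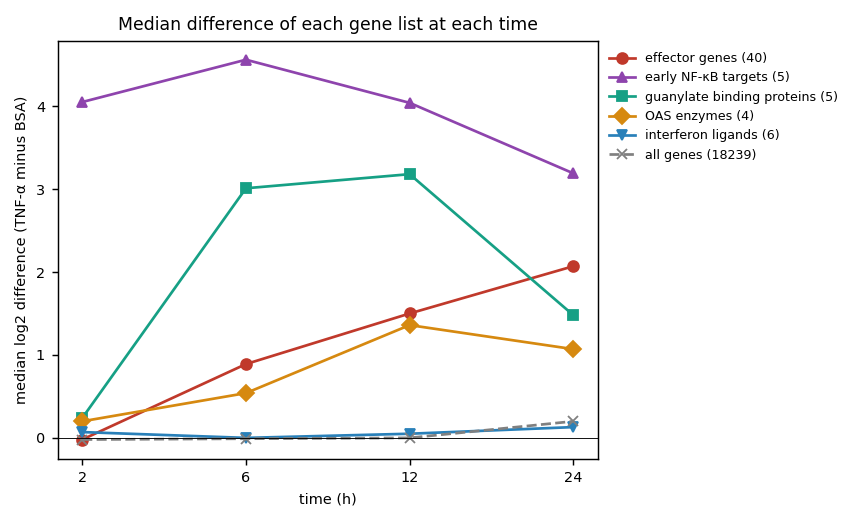
Median difference (TNF-α minus BSA, log2) of each gene list at 2, 6, 12 and 24 h; the number of measured genes is in brackets. The early NF-κB targets are at 4.05 at 2 h, where the effector genes are at -0.02; the effector genes are at 2.07 at 24 h, and the interferon ligands stay within 0.13 of 0.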

How the data were processed

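RNA was isolated with TRIzol and 10 ng of it labelled by a 3′ IVT kit, per the labels' protocols. The deposited log2 values, 1 per probe set, were made by the authors with RMA, per the submitters' processing notes; software and version are not stated there. No further normalisation or filter was applied. Of the probe sets, 45253 had 1 symbol, 1327 several, 2713 none listed and 93 were controls, and those with 1 were used. No probe set's symbol differed from the RefSeq gene table. One listed gene was not analysed here. Of the effector probe sets used, 13 have suffixes marking possible cross-reaction.

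Groups and times came from the labels. For the test of TNF-α minus BSA, limma 3.58.1 under R 4.3.3 (two-sided, moderated by eBayes) had time as a factor, on 4 pairs (3 residual degrees of freedom) and on the 3 pairs of 2, 6 and 12 h (2), and adjusted by Benjamini-Hochberg over all genes. A model of treatment, log2 hours and their product had 4. The fit on 4 pairs and the model with the product were tested on simulated data, with changes constant over the times or linear in log2 hours. The fit over 6 and 12 h was not simulated. Arrays give no read depth, and their number limits the precision. Nothing in the labels says the arrays come from separate cultures, so the p-values rest on the scatter among these arrays, technical or not, together with differences of the effect between times. Moderation by eBayes also draws the variance of each gene towards that of all genes, and more so where residual degrees of freedom are fewer. The members, lists and rules were chosen with earlier results of these data known. Values in every array are given for the 12 genes with the largest mean difference, the 5 with the smallest and the IFITM genes. Effector genes that pass a main test were to be added, and none did. Not all genes called over 6 and 12 h are given in this way. The single values of other genes were chosen after they were seen. Alternatives were the mean of probe sets, the probe set brightest in BSA, other scalings, a filter on dim genes, another prior, no time factor, other onset rules and leaving out 1 time.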

Additional observations from a re-analysis of the deposited data

Results flagged for a closer look

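In 80 groups of 4 arrays (each of the 40 genes in each arm), a gap test set apart 4 arrays that lay far from the others of their group; chance gives such a gap in about 1 of 20 groups, and the arrays of a group differ in time. TRIM22 in BSA cells was 4.77 at 12 h, where its other BSA arrays were between 4.95 and 4.98. BST2 in TNF-α cells was 4.25 at 24 h, where the others were between 8.32 and 9.03, and in BSA cells 5.30 at 24 h, where the others were between 7.95 and 8.38. IFI6 in BSA cells was 6.09 at 24 h, against 7.18 to 7.28 before.

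The difference of BST2 was -1.04 at 24 h and 1.09 at 12 h. With 1 array per arm at each time this turn of sign was not tested. On its 3 bright probe sets the 24 h levels were 4.25, 3.63 and 2.77 in TNF-α cells and 5.30, 4.80 and 4.26 in BSA cells, and its dim probe set read 3.18 in TNF-α cells and 2.65 in BSA cells. The BSA array at 24 h, where BST2 was low too, had a GAPDH gap of 0.21, against 6.28 on the TNF-α array. Its ACTB gap was 3.47, where the arrays before 24 h had 2.59 to 3.09. Its mean correlation with the other arrays was 0.968, where those had 0.972 to 0.978. The part of RNA quality at 24 h, in either arm, was not tested.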

How the results depend on the processing

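Results of the counts, medians and fits kept their direction and side of the threshold in 111 of 128 comparisons with an alternative, and those of single genes in 298 of 315. The number of all genes past the threshold over 4 times was 3, and became 1 with the mean of probe sets, 6 among genes above the median level, 5 without the replicate block, 5 with a prior that follows the level and 0 to 67 when 1 time was left out. Over 2, 6 and 12 h it was 67, and became 36 with the mean of probe sets, 5 without the replicate block, 160 with the prior that follows the level and 0 to 1094 when 1 time was left out. The effector genes that passed there were 0, 2 with that prior and 0 to 31 when 1 time was left out, 31 being without 2 h; a fit with fewer pairs has fewer degrees of freedom. The time factor pairs the arrays, since the labels give no replicate numbers, and dropping that block left 0 effector genes past the threshold in either fit. By 6 h 18 genes had an onset, or 9 against the highest BSA array. BST2, the 1 gene 2-fold lower at 24 h, left 0 with the mean of probe sets. Mean differences near 0 changed sign: over 4 times leaving out 1 time gave -0.19 to 0.17 for IFITM3, -0.23 to 0.48 for BST2 (both lowest without 12 h) and -0.07 to 0.16 for IFITM2 (lowest without 24 h), which was -0.04 with the mean of probe sets; over 2, 6 and 12 h it gave -0.09 to 0.35 for IFITM3. The causes were not tested. The count of 29 genes with arms apart from 6 h was 28 to 36 under 5 alternatives added after seeing the data.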
